A study of Mus musculus with 20 samples.

Results

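The genes of the nuclear-encoded subunits of oxidative phosphorylation were followed through 20 RNA immunoprecipitation libraries of mouse embryonic stem cells (ESCs). They were taken by symbol alone, as all genes named Nduf followed by a, b, c, s or v and a digit (complex I), Sdha to Sdhd (complex II), Uqcr (complex III), Cox4 to Cox8 (complex IV) or Atp5 (complex V). Of the 23284 genes in every file, 85 carried such a symbol: 37 of complex I, 4 of complex II, 8 of complex III, 19 of complex IV and 17 of complex V. No measured value entered this choice. The symbols also took in 5 genes that are not counted as subunits of the named complex today, namely Cox4nb, Atp5s, Atp5sl, the supercomplex factor Cox7a2l and the paralog Ndufa4l2, and Ndufa4, named for complex I, is now placed in complex IV.

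The study asked which mRNAs are bound by Tet1 and Tet2, enzymes that oxidise 5-methylcytosine in DNA and RNA. All cells were wild-type ESCs in which CRISPR-Cas9 nickase editing had joined Flag, HA and Twin-Strep tags to the C-terminus of an endogenous Tet protein. They gave a Tet1 line (4 libraries), a Tet2 line (8 libraries) and a Tet2ΔRBD line (8 libraries), named Tet2dRBD-KI in the labels, whose tagged Tet2 lacks the RNA-binding domain next to its catalytic domain. The lines were picked as clones, and the labels name no second clone of any line. The cells were untreated and were grown on gelatin in medium with serum and leukemia inhibitory factor. RNA recovered with anti-Flag antibody from cytoplasmic extract (IP) was set against total RNA of the cells (input) with the same replicate number. That gave 2 pairs for Tet1, 4 for Tet2 and 4 for Tet2ΔRBD. Neither an IP from untagged cells nor an IP with a control antibody was analysed here, so a ratio of IP to input is relative to the other transcripts of that pair, and fraction (cytoplasm or whole cell) and immunoprecipitation cannot be told apart.

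The libraries held 21078995 to 37576638 expected counts each (median 25517290). Pou5f1, which defines pluripotent cells, lay between 2000.28 and 3191.32 TPM in the inputs (TPM is the share of a library's transcripts that come from a gene, scaled to a fixed total), and the summed level of 9 pluripotency markers between 14476 and 18821 TPM. Summed markers of fibroblasts (18.5 to 178 TPM), primitive endoderm (12.2 to 148 TPM), neuroectoderm (21.3 to 144 TPM) and mesoderm (2.38 to 5.95 TPM) were far lower, with Col3a1, Postn, T, Mixl1, Mesp1 and Pax6 under 1 TPM in every library. Dppa5a alone gave 8953 to 12324 TPM of the pluripotency sum, while Zfp42 (15.3 to 75.8 TPM) and Klf4 (17.4 to 45.0 TPM) were low. In single inputs Acta2 reached 115 TPM, Tubb3 123 TPM, Dab2 50.2 TPM and Gata4 43.7 TPM. The numbering of the deposited data puts the libraries in 3 sets: replicate 1 of Tet2 and Tet2ΔRBD, replicate 2 of the same lines, and all remaining libraries, Tet1 included. Replicates within the last set differed by a mean chi-square per gene of 2.83 to 17.5, where sampling noise gives 1, against 146 to 585 for all other replicates. The study gives its immunoprecipitations as at least biological duplicates without saying which libraries these are, so a p-value measures the spread between these samples, part of which may be technical. Both replicate 2 pairs stood apart from the others for these genes, and results that rest on them are given with and without them.

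Oxidative phosphorylation is carried out in the inner mitochondrial membrane. Complex I takes electrons from NADH and complex II from succinate, both pass them through ubiquinone to complex III and on to complex IV, where oxygen is reduced, and the proton gradient built on the way drives ATP synthesis by complex V. Most subunits are encoded in the nucleus, translated in the cytosol and imported, while a few hydrophobic ones are made from mitochondrial DNA. Mouse ESCs use both respiration and glycolysis, and many of the small subunits are made from short mRNAs.

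The c ring of complex V, the rotor that protons turn, is encoded by 3 genes, Atp5g1 (chr11:95930166-95936984, minus strand), Atp5g2 (chr15:102493299-102501478, minus strand) and Atp5g3 (chr2:73746504-73749383, minus strand), all of NCBIM37 (mm9) as annotated in gencode vM1. They encode different import sequences and the same last 78 residues. The coding stretches of those residues are printed because reads can be assigned to one of these genes over the stretch only through the bases that differ. Capitals mark the positions at which the 3 genes are not all the same.
Atp5g1: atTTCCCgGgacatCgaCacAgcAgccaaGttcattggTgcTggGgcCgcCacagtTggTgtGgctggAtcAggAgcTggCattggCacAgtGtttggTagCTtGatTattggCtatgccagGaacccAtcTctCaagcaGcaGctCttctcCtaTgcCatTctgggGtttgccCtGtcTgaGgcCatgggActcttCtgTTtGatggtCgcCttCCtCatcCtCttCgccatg
Atp5g2: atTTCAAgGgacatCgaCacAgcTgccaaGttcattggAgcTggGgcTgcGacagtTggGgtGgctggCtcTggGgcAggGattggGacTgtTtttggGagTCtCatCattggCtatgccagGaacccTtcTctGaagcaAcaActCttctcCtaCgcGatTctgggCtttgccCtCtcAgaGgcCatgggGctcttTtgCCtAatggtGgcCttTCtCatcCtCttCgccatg
Atp5g3: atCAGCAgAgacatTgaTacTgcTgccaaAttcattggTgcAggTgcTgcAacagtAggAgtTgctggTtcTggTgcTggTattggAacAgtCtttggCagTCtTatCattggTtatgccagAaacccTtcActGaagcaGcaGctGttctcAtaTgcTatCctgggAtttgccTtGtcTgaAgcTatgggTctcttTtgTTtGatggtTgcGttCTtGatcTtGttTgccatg
Of the 234 bases, 63 differed in at least 1 gene, and 55 of these lay at the last base of a codon. Atp5g1 and Atp5g2 were 84.6% identical, Atp5g1 and Atp5g3 78.6%, and Atp5g2 and Atp5g3 77.4%. The authors' counting divides reads that fit several transcripts, so the split between these genes is less certain than their sum.

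All but a few of these mRNAs were abundant in the inputs. Their summed TPM made up 3.51 to 4.72% of all TPM in an input (mean 4.09% ± 0.43, SD, n = 10). TPM takes transcript length into account, so that levels of different genes can be set side by side, although in these bulk libraries fewer cells with a transcript and less of it per cell cannot be told apart. The summed level had a median over the inputs of 10601 TPM for complex I, 949 TPM for complex II, 4053 TPM for complex III, 11662 TPM for complex IV and 12034 TPM for complex V. Among genes of at least 5 TPM, the median gene of complex IV (909 TPM) and of complex V (721 TPM) was higher than that of complex III (556 TPM), complex II (269 TPM) and complex I (251 TPM).

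**Figure D1:**
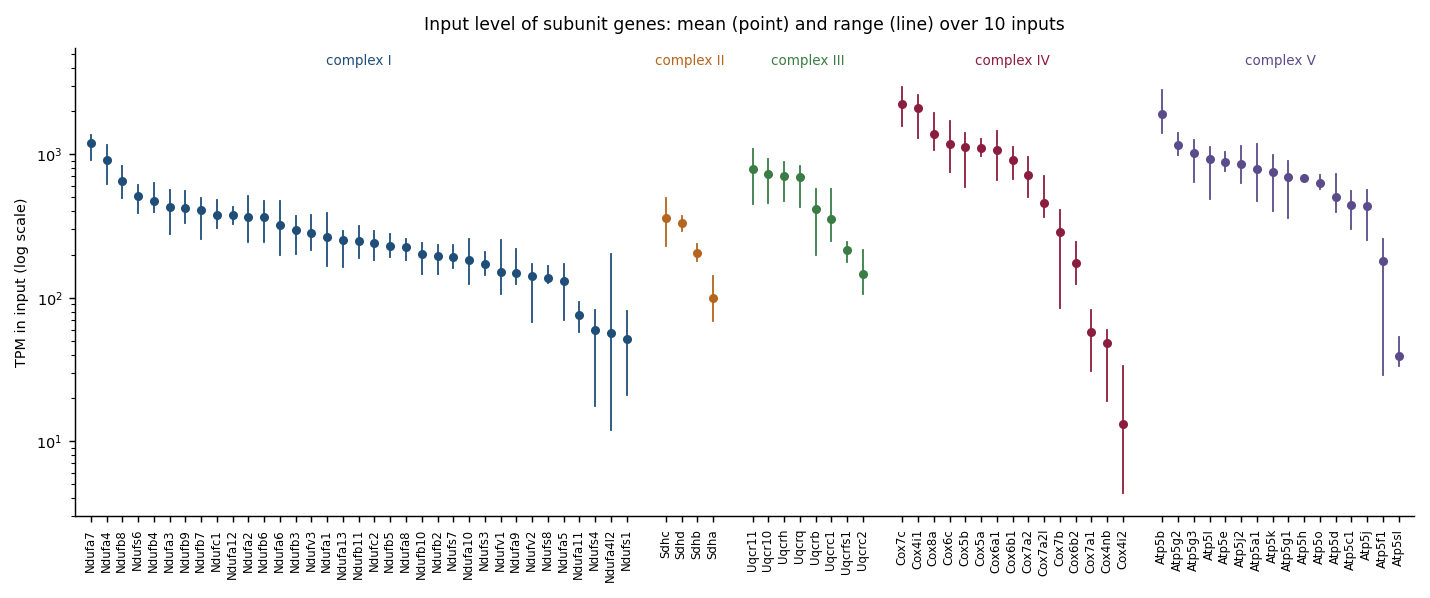
Input level of 78 of the 79 subunit genes with a mean input of at least 5 TPM, ordered within each complex; points are means over the 10 inputs, lines run from the lowest to the highest input, and the vertical axis is TPM on a log scale. Cox7c, Cox4i1 and Atp5b stand highest, and in the order of all 79 genes over all complexes the ranges of 77 of 78 neighbours overlap.

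Each complex had 1 gene at the top of its order. In complex I it was Ndufa7, an accessory subunit (lowest 916 TPM, median 1210.2 TPM, highest 1369 TPM), in complex II Sdhc, a membrane anchor (230.3, 335 and 499 TPM), and in complex III Uqcr11, a small subunit (449.9, 821 and 1089 TPM). In complex IV it was Cox7c (1562, 2326 and 2939.6 TPM) and in complex V Atp5b, the catalytic beta subunit (1402, 1783 and 2789.98 TPM). These tops were not sharply set apart: of 78 neighbours in the order of levels over all complexes (genes of at least 5 TPM), 77 had overlapping ranges over the inputs. At the lower end of complex I stood Ndufs1, the largest iron-sulphur subunit, with a mean of 51.4 TPM ± 16.7 (SD, n = 10).

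Where a subunit has tissue isoforms, the form used in most tissues was the higher one. Cox4i1 had a mean input of 2098 TPM against 13.3 TPM for the lung form Cox4i2, Cox6a1 1074 TPM against 0.284 TPM for the muscle form Cox6a2, and Cox7b 285 TPM against 0.774 TPM for Cox7b2. Cox8a stood at 1390.8 TPM against 0.164 TPM for the muscle form Cox8b and 1.2 TPM for Cox8c. The gap was smaller for subunits 6B and 7A. The testis form Cox6b2 had 174 TPM beside 909 TPM for Cox6b1, and the muscle form Cox7a1 57.4 TPM beside 714 TPM for Cox7a2 and 460 TPM for Cox7a2l. Of the c ring genes, Atp5g2 had 1167 TPM ± 146, Atp5g3 1022 TPM ± 200 and Atp5g1 693 TPM ± 201 (SD, n = 10), and their ranges overlapped. Ndufs5 had a mean of only 1.06 TPM, the lowest of complex I, where the other 36 genes had at least 51.4 TPM. Whether that value is the level of the mRNA was not tested.

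Some levels followed the library set rather than the line. Ndufa4l2 stood at 201 and 148 TPM in the replicate 1 inputs of Tet2 and Tet2ΔRBD and between 11.9 and 45.7 TPM in the other 8 inputs, while Ndufa4 was between 619.85 and 1169 TPM throughout. Atp5f1, subunit b of the peripheral stalk, was lowest in the replicate 2 inputs (74.7 and 29.1 TPM) and lay between 176 and 256 TPM elsewhere. Cox7b (128 and 84.9 TPM against 272 to 412 TPM) and Ndufs4 (31.7 and 17.7 TPM against 55.5 to 82.2 TPM) were likewise lowest in the same inputs. Cox5b differed instead by line, at 592 and 647 TPM in the Tet1 inputs and 1130.5 to 1396 TPM in the others. That difference was not tested.

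Between the inputs of Tet2ΔRBD and Tet2, 0 of the 80 subunit genes tested and 0% of the 13178 genes in that fit passed (edgeR's quasi-likelihood test, adjusted p under 0.05), with 0 subunit genes at an unadjusted p under 0.05 and 0 called by DESeq2 or by limma. That fit does not pair the inputs by replicate number, and with a replicate block 0 subunit genes and 0.0379% of all genes (5 of 13178) were called. The median difference was -0.07 on the log2 scale, and the ability of this comparison to detect changes was low. On counts generated with known changes it recovered 2% of 2-fold and 34.7% of 4-fold changes over 13012 genes. The changed genes were drawn at random from all genes in that fit, so this recovery is not that of the subunit genes alone.

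The ratio of IP to input was then tested in each line. The fit to the expected counts held a term for every pair and 1 IP term per line. It covered the 13710 genes that reached 1 CPM in at least 2 libraries, and 81 of these were subunit genes. Ndufs5, Cox6a2, Cox8b and Cox8c were too low to be tested. A gene is called here where edgeR's adjusted p is under 0.05, and the fitted ratio is on the log2 scale with its standard error (SE).

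In the Tet2 line most of these mRNAs were lower in IP than in input. Of the 81 genes, 56 were called lower (69.1%) and 2 higher, Sdha and Atp5f1 (2.47%), beside 18.5% and 14.6% of all genes tested. The median fitted ratio was -0.65, against 0.00 over all genes tested. Called lower were 25 of 36 genes of complex I, 2 of 4 of complex II, 6 of 8 of complex III, 11 of 16 of complex IV and 12 of 17 of complex V, with median ratios of -0.65, -0.28, -0.57, -0.92 and -0.57. All 56 also had a mean TPM ratio below 0, and 44 of them were below input in each of the 4 pairs.

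The Tet2ΔRBD line gave a smaller set on the same side. There 32 genes were called lower (39.5%) and 1 higher, Sdha (1.23%), beside 12.1% and 7.4% of all genes, and the median ratio was -0.45 against -0.01. With the near-identical replicates 3 and 4 of each line summed into 1 library, 6 genes were called lower (7.41%) and 0 higher, beside 4.67% and 3.12% of all genes, while Tet2 had 51 lower (63%, beside 14.2%) and 0 higher. All 32 had a mean TPM ratio below 0, and 24 were below input in each of the 4 pairs. By complex, 15, 1, 1, 7 and 8 genes were called lower in order from I to V, with medians of -0.46, -0.26, -0.45, -0.52 and -0.37. Of the genes called lower in Tet2, 29 were also called lower in Tet2ΔRBD, which is 51.8% of the 56 and 90.6% of the 32. Over all genes tested 1459 were called lower in both, of 2533 in Tet2 and 1660 in Tet2ΔRBD, an overlap of similar size.

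In the Tet1 line 2 genes were called lower (2.47%), Ndufc1 and Sdhd, and 0 higher, beside 3.18% and 2.72% of all genes, so the share called was near that of all genes. At an unadjusted p under 0.05 there were 17 lower and 0 higher, beside 1798 and 1426 of the 13710 genes tested. DESeq2 called 7 lower and 0 higher, beside 5.38% and 6.13% of all genes. With limma on log2(TPM + 1) there were 1 lower and 2 higher, beside 1.05% and 3.59%. The median ratio was -0.33 against -0.04 for all genes. Fewer calls in a line with 2 pairs do not show that Tet1 differs from Tet2, for which the difference itself was tested.

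**Figure D2:**
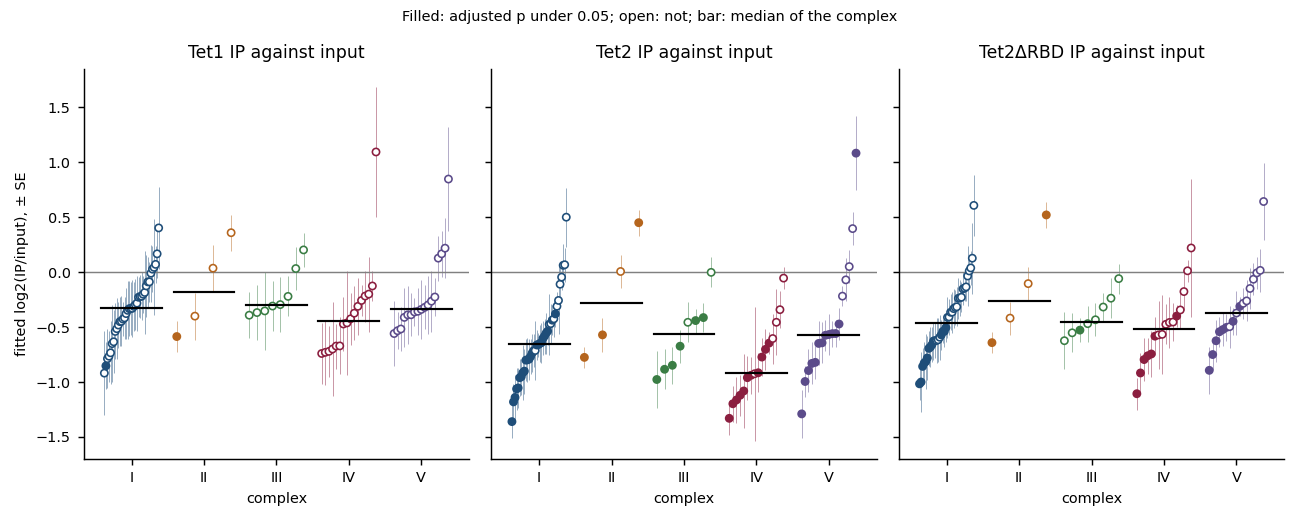
Fitted log2(IP/input) of the 81 tested subunit genes in each line, by complex and in rising order within it; lines are ± 1 SE, filled points have an adjusted p under 0.05 and black bars are the medians of a complex. Filled points below 0 make up 56 of 81 in Tet2, 32 in Tet2ΔRBD and 2 in Tet1, and complex IV has the lowest median in every line.

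These fitted ratios are relative to the typical gene. On the TPM scale the median of all tested genes lay above input, by 0.03 to 0.34 on the log2 scale depending on the pair, while TMM scaling puts it near 0. As a result 8 genes in Tet2, 15 in Tet2ΔRBD and 5 in Tet1 had a fitted ratio below 0 and a mean TPM ratio at or above 0, Uqcrc1 and Ndufa9 among them in Tet2. The study's methods take a transcript as enriched where its TPM is higher in IP than in input, and that rule was also applied to all 85 genes, pair by pair. In Tet1, 16 genes (18.8%) were above input in both pairs and 63 (74.1%) below, beside 33.5% and 20.7% of all genes. In Tet2 it gave 9 (10.6%) above and 45 (52.9%) below in every pair, beside 28.6% and 7.71%, and in Tet2ΔRBD 6 (7.06%) above and 27 (31.8%) below, beside 19.9% and 5.58%. The 2 sets are not alike in level: 13710 of all 23284 genes passed the count filter, against 81 of the 85 subunit genes. A gene with 0 TPM in both libraries of a pair can be neither above nor below input. By this rule 22 genes were below input in all 10 pairs, among them Ndufc1, Sdhd, Uqcr10, Cox6c, Cox6b2, Atp5e and Atp5g1, and 4 were above input in all of them, Ndufs1, Sdha and Atp5f1 among these. Over all 23284 genes, 780 were below input in all 10 pairs and 3110 above.

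The pairs did not all agree in size. The median log2 ratio of the 81 genes, on the log2(TPM + 1) scale, was -0.17 and -0.20 in the Tet1 pairs, -0.28, -0.71, -0.12 and -0.15 in Tet2 replicates 1 to 4, and -0.25, 0.00092, -0.22 and -0.22 in Tet2ΔRBD replicates 1 to 4. Replicate 2 was the lowest pair of Tet2 and the highest of Tet2ΔRBD. The median of these genes was below that of all tested genes in each of the 10 pairs, by 1.05 in Tet2 replicate 2, by 0.03 in Tet2ΔRBD replicate 2 and by 0.22 to 0.52 in the others. Their summed TPM in IP was 0.66 times the input in Tet2 replicate 2, 1.04 times in Tet2ΔRBD replicate 2 and 0.83 to 0.90 times in the other pairs.

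**Figure D3:**
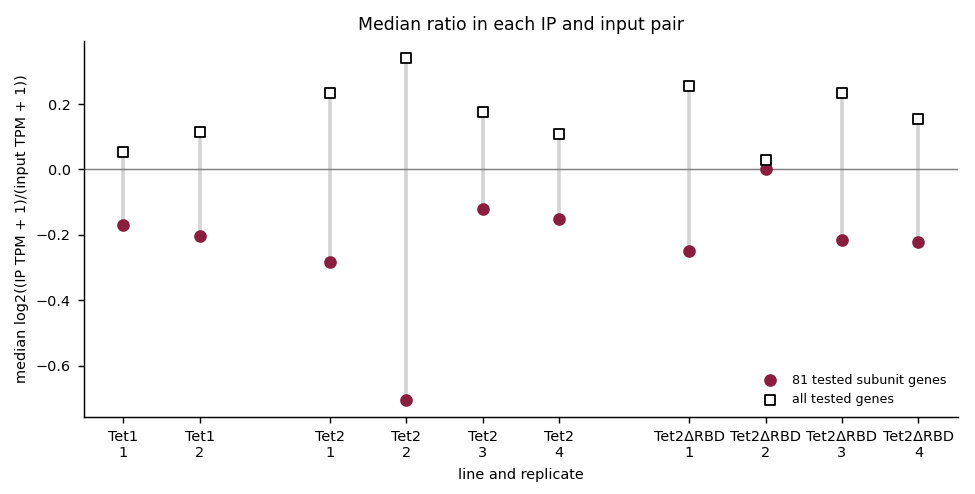
Median log2((IP TPM + 1)/(input TPM + 1)) in each IP and input pair, for the 81 tested subunit genes (filled circles) and all 13710 tested genes (open squares), joined by a grey line. The circle lies below the square in every pair, furthest in Tet2 replicate 2 (-0.71 against 0.34) and least in Tet2ΔRBD replicate 2 (0.00092 against 0.03).

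Without both replicate 2 pairs, a setting chosen after seeing these values, 53 genes were called lower in Tet2, 59 in Tet2ΔRBD and 33 in Tet1, beside 20.9%, 17.5% and 12.1% of all genes. In the same order 5, 1 and 2 were called higher, beside 17.3%, 13.3% and 8.78%. The counts in Tet2ΔRBD and Tet1 thus rest strongly on these 2 pairs. In Tet2 the count was 43 without Tet2 replicate 2 alone, beside 15% of all genes. Without both pairs the median fitted ratio was -0.46 in Tet2 and -0.54 in Tet2ΔRBD, so the order of these 2 lines was reversed. Leaving out Tet2ΔRBD replicate 3 instead left 6 genes called lower in that line, leaving out its replicate 1 left 9 and its replicate 4 left 21. The shares of all genes were then 4.3%, 6.38% and 8.97%. In Tet2 the fewest, 33, were called without Tet2 replicate 1, beside 10.8% of all genes. In Tet1 the count went up to 10 without Tet2 replicate 2 (5.46% of all genes) and 7 without Tet2ΔRBD replicate 2 (5.68%). It was 1 without Tet2 replicate 1 (2.73%), and fell to 0 without Tet2 replicate 3 (1.29%), Tet2 replicate 4 (1.69%) or Tet2ΔRBD replicate 3 (1.58%).

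In complex I 22 of the 25 genes called lower in Tet2 were accessory subunits, which made up 28 of the 36 genes tested. The 7 core subunits encoded in the nucleus carry the flavin and the iron-sulphur clusters along which electrons run, and 3 of them were called lower in Tet2 (Ndufs7, Ndufs8 and Ndufv2) and 2 in Tet2ΔRBD (Ndufs7 and Ndufs8), with medians of -0.42 and -0.23. Ndufs1 and Ndufv1 were not called in any line, with fitted ratios in Tet2 of 0.50 ± 0.27 and 0.07 ± 0.15 (SE). Of the 28 tested accessory subunits, which surround the core and help to assemble it, 22 were called lower in Tet2 and 13 in Tet2ΔRBD, with medians of -0.71 and -0.57. Ndufa4 is counted among them by its symbol and was called lower in both lines. The difference between core and accessory subunits was not tested. The accessory genes were also shorter, with a median effective length (described below) of 493 bases against 1404 bases for the core.

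Ndufc1, a small accessory subunit of the membrane arm, had the lowest fitted ratio of all 81 genes in Tet2. Its input was 308, 331, 476 and 482 TPM in Tet2 replicates 1 to 4 and its IP 169, 113, 264 and 253 TPM, so that the log2 ratios were -0.86, -1.53, -0.85 and -0.93. The ratios were -0.68, -0.62, -0.88 and -0.78 in Tet2ΔRBD and -0.65 and -0.75 in Tet1. Every IP was below every input of its line, and the fitted ratio was -1.36 ± 0.15 in Tet2, -1.02 ± 0.15 in Tet2ΔRBD and -0.85 ± 0.21 (SE) in Tet1, with adjusted p of 0.00024, 0.002 and 0.044.

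Ndufb4 and Ndufc2, accessory subunits of the same arm, behaved differently. For Ndufb4 the IP was 437, 166, 694 and 795 TPM and the input 417, 405, 619 and 626 TPM in Tet2 replicates 1 to 4, while in Tet2ΔRBD the IP was 282, 345, 257 and 245 TPM and the input 429, 396, 521 and 511 TPM. In Tet2 the IP was thus slightly above input in 3 pairs (log2 ratios 0.07, 0.17 and 0.34) and far below in replicate 2 (-1.28), whereas in Tet2ΔRBD (-0.61, -0.20, -1.02 and -1.06) and Tet1 (-0.79 and -0.74) it was below input throughout. For Ndufc2 the log2 ratios were 0.40, -0.40, 0.64 and 0.84 in Tet2 and -0.36, -0.65, -0.51 and -0.50 in Tet2ΔRBD. In the Tet1 pairs they were -0.25 and -0.48. Both genes were called lower in Tet2ΔRBD (-1.0 ± 0.27 and -0.78 ± 0.20, SE) and not in Tet2 (-0.48 ± 0.28 and 0.06 ± 0.20). The calls in Tet2ΔRBD were lost without Tet2ΔRBD replicate 1 or 3, and that of Ndufb4 also without Tet2ΔRBD replicate 4 (adjusted p of 0.068 to 0.123). The test of the difference between the lines is given with the comparison of Tet2 and Tet2ΔRBD.

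Complex II, the only complex with no subunit encoded in mitochondrial DNA, had genes called on both sides of input. The difference between its 4 genes was not tested. Sdha, the flavoprotein that oxidises succinate, was above input in all 10 pairs: its IP was 182, 212, 123 and 117 TPM against inputs of 119, 115, 70.7 and 68.4 TPM in Tet2 replicates 1 to 4, and its log2 ratios were 0.53 to 0.93 in Tet2ΔRBD and 0.50 and 0.51 in Tet1. It was called higher in Tet2 (0.45 ± 0.12, SE, adjusted p = 0.0142) and in Tet2ΔRBD (0.52 ± 0.12, adjusted p = 0.0136) and not in Tet1 (0.36 ± 0.16, adjusted p = 0.217). It is the only subunit gene called higher in both lines. The call was lost in Tet2 without Tet2 replicate 3 or 4 (adjusted p of 0.063 and 0.061) and in Tet2ΔRBD without Tet2ΔRBD replicate 3 (adjusted p = 0.073), and in both lines with replicates 3 and 4 summed (adjusted p of 0.093 in Tet2 and 0.078 in Tet2ΔRBD). Sdhb, the iron-sulphur subunit that passes electrons on, was called in no line, with fitted ratios of 0.01 ± 0.15, -0.10 ± 0.15 and 0.04 ± 0.21 in Tet2, Tet2ΔRBD and Tet1. On the TPM scale its ratios were 0.26, -0.08, 0.55 and 0.56 in Tet2 and 0.05 to 0.23 in the other lines.

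The membrane anchors of complex II had fitted ratios below 0 in every line. Sdhd was below input in all 10 pairs, at log2 ratios of -0.47, -0.53, -0.43 and -0.39 in Tet2 and -0.23, -0.60, -0.31 and -0.32 in Tet2ΔRBD. The Tet1 pairs gave -0.40 and -0.48. It was called lower in all 3 lines, with fitted ratios of -0.78 ± 0.10, -0.64 ± 0.10 and -0.59 ± 0.14 (SE). Sdhc was called lower in Tet2 alone (-0.57 ± 0.15), with Tet2 log2 ratios of -0.52, -0.45, -0.03 and -0.01 that stayed close to 0 in replicates 3 and 4. In Tet2ΔRBD its ratios were -0.35, -0.40, 0.03 and 0.15. Without Tet2 replicate 1 or 2 the call of Sdhc was lost (adjusted p of 0.114 and 0.071), and so was that of Sdhd in Tet1 without either Tet1 pair (0.321 and 0.602).

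In complex III 6 of 8 genes were called lower in Tet2 and 1 in Tet2ΔRBD, and 0 were called for the difference between these lines. At an unadjusted p under 0.05 there were 7 lower in Tet2 and 6 in Tet2ΔRBD, and all 8 fitted ratios were below 0 in both. The median log2 ratio of complex III in replicate 2 was -0.63 in Tet2 and 0.08 in Tet2ΔRBD. All 5 small subunits had a fitted ratio below 0 in every line, and 4 of them, Uqcr10, Uqcr11, Uqcrb and Uqcrq, were called lower in Tet2 and 0 in Tet2ΔRBD. Uqcr11 had log2 ratios of -0.33, -1.07, -0.37 and -0.36 in Tet2 and -0.25, 0.06, -0.32 and -0.26 in Tet2ΔRBD, with fitted ratios of -0.85 ± 0.17 and -0.47 ± 0.16 (SE). Uqcrc1, a core subunit, was close to 0 in all lines (-0.00 ± 0.14 in Tet2, -0.06 ± 0.14 in Tet2ΔRBD and 0.03 ± 0.19 in Tet1), while its partner Uqcrc2 was called lower in Tet2 (-0.41 ± 0.13). Uqcrfs1, the Rieske iron-sulphur protein, was called lower in Tet2 (-0.44 ± 0.11) and in Tet2ΔRBD (-0.53 ± 0.11), with 0.20 ± 0.15 in Tet1.

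Complex IV, cytochrome c oxidase, had the lowest median in every line (-0.92 in Tet2, -0.52 in Tet2ΔRBD and -0.44 in Tet1). Its nuclear subunits are small and surround a core made in the mitochondrion. Cox7c, the most abundant of these mRNAs, had log2 ratios of -0.44, -1.14, -0.41 and -0.42 in Tet2 and -0.23, 0.17, -0.38 and -0.27 in Tet2ΔRBD, and was called lower in Tet2 (-0.92 ± 0.18, SE) and not in Tet2ΔRBD (-0.45 ± 0.18). Cox4i1, nearly as abundant, was called in no line, with -0.34 ± 0.17, -0.18 ± 0.17 and -0.22 ± 0.23 in Tet2, Tet2ΔRBD and Tet1. The difference between these genes was not tested.

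The testis form Cox6b2 had the lowest fitted ratio in Tet2ΔRBD and the second lowest in Tet2. Its IP was 115, 63.2, 107 and 101 TPM against inputs of 246, 163, 179 and 184 TPM in Tet2, and 135, 70.3, 69.8 and 75.6 TPM against 238, 125, 141 and 125 TPM in Tet2ΔRBD. Every IP was below its own input in all 10 pairs, and the fitted ratio was -1.33 ± 0.15 in Tet2, -1.11 ± 0.15 in Tet2ΔRBD and -0.67 ± 0.20 (SE) in Tet1, where it was not called. Its counterpart Cox6b1 was called lower in Tet2 (-0.96 ± 0.20) and Tet2ΔRBD (-0.80 ± 0.20). So were both forms of subunit 7A, Cox7a1 (-1.12 ± 0.18 and -0.92 ± 0.18) and Cox7a2 (-1.16 ± 0.21 and -0.74 ± 0.21), and Cox7a2l (-0.65 ± 0.10 and -0.40 ± 0.10). Cox4i2 was called in neither line (-0.60 ± 0.23 and -0.46 ± 0.23), Cox7b and Cox8a were called lower in Tet2 alone (-1.08 ± 0.34 and -0.77 ± 0.18), and the low Cox7b2 had no call (-0.92 ± 0.61 in Tet2).

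Cox6a1 varied widely between pairs. Its IP was 589, 2339, 688 and 711 TPM in Tet2ΔRBD replicates 1 to 4 against inputs of 881, 1135, 1155 and 1227 TPM, so that replicate 2 alone was above input (log2 ratio 1.04) and the others were at -0.58, -0.75 and -0.79. In Tet2 the ratios were -0.01, -0.69, 0.05 and 0.09 and in Tet1 -0.55 and -0.55. No line was called, with fitted ratios of -0.57 ± 0.31 (SE) in Tet2ΔRBD, -0.46 ± 0.30 in Tet2 and -0.70 ± 0.42 in Tet1. Without both replicate 2 pairs the fitted ratio in Tet2ΔRBD was -1.02 ± 0.08, adjusted p = 0.00024.

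In complex V the 3 small membrane subunits Atp5k, Atp5l and Atp5j2 and the 3 c ring genes were all called lower in Tet2. The c ring ratios in Tet2 were -0.995 ± 0.14 for Atp5g1, -0.64 ± 0.19 for Atp5g2 and -0.57 ± 0.14 (SE) for Atp5g3, and in Tet2ΔRBD -0.75 ± 0.14, -0.26 ± 0.19 and -0.54 ± 0.14, where Atp5g2 was not called. In Tet2 the calls of Atp5g2 and Atp5g3 were lost without Tet2 replicate 1 (adjusted p of 0.143 and 0.058) and that of Atp5g2 also without replicate 2 (0.098), while Atp5g1 kept its call in both lines whichever pair was left out. The part that the splitting of shared reads has in the order among these genes was not tested. In the F1 head, which makes ATP, Atp5c1, Atp5d and Atp5e were called lower in Tet2, while the large alpha and beta subunits were not called (Atp5a1 0.05 ± 0.15 and Atp5b 0.40 ± 0.15, adjusted p = 0.815 and 0.0587). Atp5b was above input in all 4 Tet2 pairs, at log2 ratios of 0.76, 0.37, 0.84 and 0.88, in both Tet1 pairs (0.32 and 0.23) and in 3 of 4 Tet2ΔRBD pairs (0.12, -0.14, 0.41 and 0.45).

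Atp5e, the small epsilon subunit of the same head, had the third lowest fitted ratio in Tet2. Its log2 ratios were -0.99, -1.71, -0.63 and -0.58 in Tet2, -0.96, -0.39, -0.60 and -0.52 in Tet2ΔRBD, with Tet1 at -0.45 and -0.37, all below 0. The fitted ratio was -1.29 ± 0.22 in Tet2 and -0.89 ± 0.21 in Tet2ΔRBD, both called, and -0.56 ± 0.30 (SE) in Tet1. The call in Tet2ΔRBD was lost without Tet2ΔRBD replicate 1 or 3 (adjusted p of 0.077 and 0.073).

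In the peripheral stalk, which holds the head against the turning ring, Atp5h, Atp5j and Atp5o were called lower in Tet2, and Atp5f1 was called higher. The IP of Atp5f1 was 789, 253, 354 and 363 TPM against inputs of 222, 74.7, 176 and 181 TPM in Tet2 replicates 1 to 4, at log2 ratios of 1.82, 1.75, 1.01 and 1.00. In Tet2ΔRBD the ratios ran from 0.12 in replicate 4 to 2.56 in replicate 2, where the input was 29.1 TPM, and in Tet1 they were 0.93 and 1.05. It was thus above input in all 10 pairs, with a fitted ratio of 1.08 ± 0.34 in Tet2 (adjusted p = 0.0309), 0.64 ± 0.35 in Tet2ΔRBD (adjusted p = 0.215) and 0.85 ± 0.47 in Tet1 (adjusted p = 0.315). Its call in Tet2 was lost when any 1 of the 4 Tet2 pairs was left out (adjusted p of 0.051 to 0.103).

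**Figure D4:**
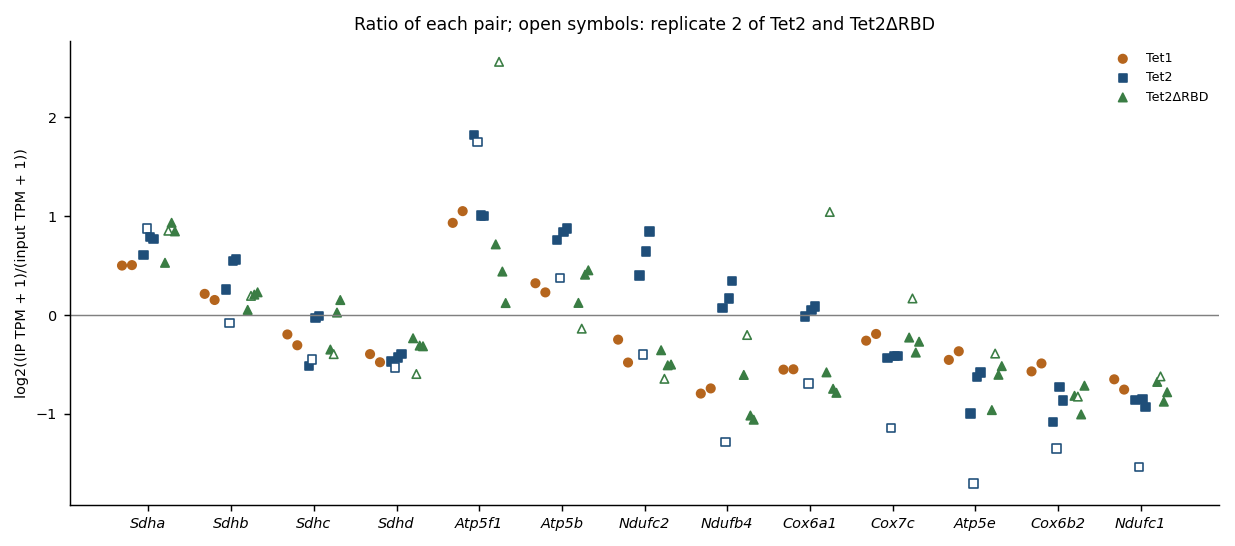
Log2((IP TPM + 1)/(input TPM + 1)) in each pair for 13 subunit genes described in the text; circles are Tet1, squares Tet2, triangles Tet2ΔRBD, and open symbols the replicate 2 pairs of Tet2 and Tet2ΔRBD. Sdha and Atp5f1 lie above 0 in every pair, Sdhd, Atp5e, Cox6b2 and Ndufc1 below 0 in every pair, and the open triangle of Cox6a1 stands alone at 1.04.

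Whether the RNA-binding domain of Tet2 changed these ratios was tested by subtracting the fitted IP term of Tet2ΔRBD from that of Tet2. Of the 81 genes 0 were called, beside 0.0219% of all genes tested (3 of 13710). At an unadjusted p under 0.05 there were 3, Ndufc2, Ndufa1 and Atp5b, and DESeq2 and limma called 0. The median difference, Tet2 minus Tet2ΔRBD, was -0.21, and with 1 pair left out it ran from -0.32 (without Tet2 replicate 4) to -0.05 (without Tet2 replicate 2). Among genes of at least 5 TPM the largest differences were 0.84 ± 0.28 for Ndufc2, -0.68 ± 0.38 for Ndufa5 and -0.55 ± 0.23 (SE) for Ndufa1, each with an adjusted p of 1.00 in edgeR's test. With 4 pairs a line, counts generated with known differences were recovered for 22% of 2-fold and 0% of 1.5-fold differences over 13603 genes. The changed genes were drawn at random from all genes, with a median input of 9.21 TPM against 362 TPM for the subunit genes. Whether a difference of the size of the median could be detected for a single subunit gene was thus not tested.

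This comparison also turned on the replicate 2 pairs. Ndufa5 had log2 ratios of -0.26, -1.22, -0.09 and -0.04 in Tet2 and -0.06, 1.08, -0.17 and 0.13 in Tet2ΔRBD, so that its difference lay mostly in replicate 2. Without both replicate 2 pairs the median difference was 0.06, and Ndufb4 alone was called (1.14 ± 0.15, SE, adjusted p = 0.0348), beside 0.125% of genes called higher in Tet2. That setting was chosen after seeing the values, and Ndufb4 was among the genes that stood apart in Tet2 replicate 2. Without Tet2 replicate 2 alone the gene called was Ndufc2 (1.15 ± 0.17, adjusted p = 0.0475). In replicates 3 and 4 and Tet1 only, the libraries of 1 set, 6 genes were called, all higher in Tet2 than in Tet2ΔRBD (Ndufb4 1.37, Ndufc2 1.32, Cox6a1 0.91, Atp5f1 0.79, Ndufa3 0.59 and Cox7b 0.43), beside 0.665% of genes called in that direction, with a median difference of 0.09. That fit has 3 residual degrees of freedom and its replicates are the near-identical ones, so these p-values do not cover the spread between library sets.

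The difference between Tet1 and Tet2 was tested likewise, and 0 of the 81 genes were called, beside 0% of all genes. At an unadjusted p under 0.05 there were 4, all higher in Tet1, namely Uqcrfs1, Cox6b2, Cox7a2l and Cox7b2, and DESeq2 and limma called 0. The median difference, Tet1 minus Tet2, was 0.31, and it was 0.14 without Tet2 replicate 2 and also 0.14 without both replicate 2 pairs. Among genes of at least 5 TPM the largest differences were 0.73 ± 0.36 for Atp5e, 0.67 ± 0.35 for Ndufb5 and 0.66 ± 0.25 (SE) for Cox6b2, with an adjusted p of 0.94 each. Within the library set that holds all Tet1 libraries the median difference was -0.00, and 7 genes were called: Ndufb4 (-1.0), Ndufc2 (-1.09), Cox6a1 (-0.60) and Atp5b (-0.56) lower in Tet1, and Cox7b (0.41), Uqcrb (0.50) and Uqcrfs1 (0.51) higher, beside 1.21% and 1.14% of all genes. Library set and line are thus mixed in the comparison over all libraries.

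The order of the ratios within the chain followed transcript length, which the choice of genes did not use. The effective length given in the files, the number of positions at which a fragment can start, had a median of 611 bases over the 81 tested subunit genes and 2670.3 bases over all genes tested. Of the tested subunit genes under 500 bases, 27 of 32 were called lower in Tet2 (84.4%), of those of 500 to under 1000 bases 19 of 25 (76%), of 1000 to under 2000 bases 9 of 18 (50%) and of 2000 bases or more 1 of 6 (16.7%). The other genes tested in the same classes were called lower in 55.7%, 45.9%, 24.8% and 11.8%. Both sets thus fell with length, and the subunit genes had the higher share in each class, with no test of that difference.

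Abundance also moved with these classes. Among other genes with a mean input of at least 100 TPM, 77.8%, 60.9%, 37.9% and 32.9% were called lower in Tet2, against 26 of 30 (86.7%), 19 of 23 (82.6%), 9 of 16 (56.2%) and 0 of 1 subunit genes. In Tet2ΔRBD the shares of such subunit genes were 43.3%, 56.5%, 18.8% and 0%, and those of the other genes 42.2%, 36.6%, 27.9% and 25.6%. The subunit genes of 1000 to under 2000 bases thus had a lower share than other abundant genes in Tet2ΔRBD and a higher one in Tet2.

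Across the 81 genes, which are not independent replicates, Spearman's rho between effective length and fitted ratio was 0.65 in Tet2, 0.55 in Tet2ΔRBD and 0.58 in Tet1, and across all genes tested 0.44, 0.38 and 0.20. Genes above input in all 10 pairs were long for this set (Sdha 2791, Ndufs1 2633 and Atp5f1 1388 bases), and Ndufc1, Atp5e and Cox6b2 had 346, 346 and 400.3 bases. Length itself went with lower abundance among them (rho = -0.48 with mean input TPM). The part of length, of fragment selection and of abundance in these ratios was not tested.

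**Figure D5:**
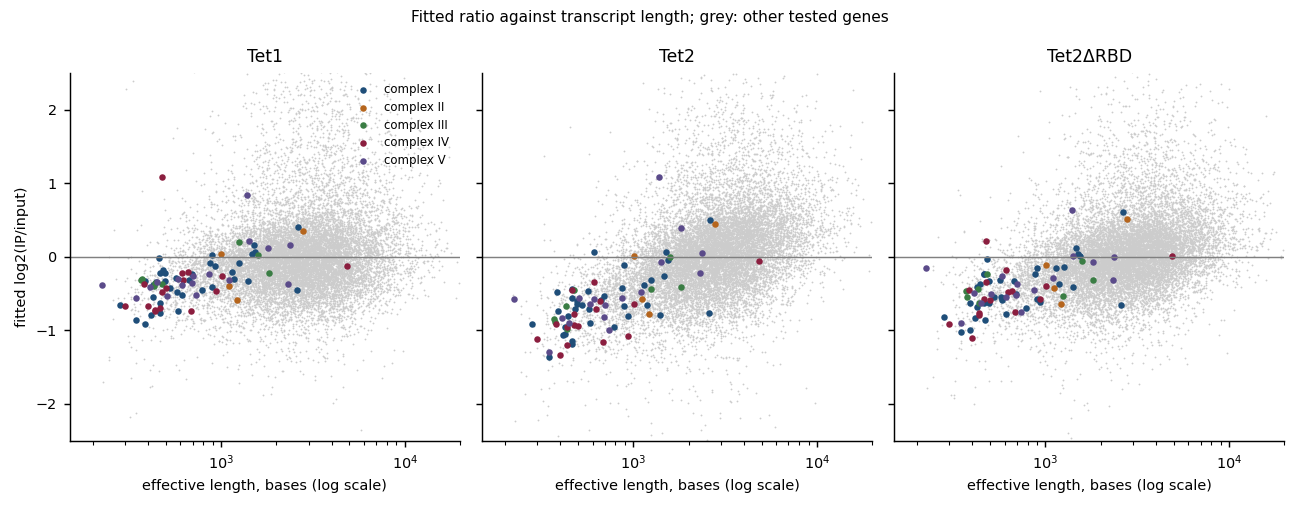
Fitted log2(IP/input) against effective length (bases, log scale) in each line; grey points are other tested genes and coloured points the 81 subunit genes by complex. Grey points beyond the vertical axis are not drawn. The shortest subunit genes lie lowest, and those of 2000 bases or more lie around 0 (median -0.00 in Tet2).

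Other genes of the same pathway were counted from lists of named genes, and their counts are to be read beside the shares of all genes tested, which were 18.5% lower and 14.6% higher for Tet2, with 12.1% and 7.4% for the Tet2ΔRBD line and 3.18% and 2.72% for Tet1. Of 8 respiratory chain genes outside the symbols above, 2 were called lower in Tet2, the electron carrier cytochrome c (Cycs, -1.36 ± 0.25, SE) and its testis form Cyct (-0.79 ± 0.23), and 1 higher, Etfdh, which feeds electrons from fatty acid oxidation into ubiquinone (1.39 ± 0.31). In Tet2ΔRBD 2 were lower (Cycs and Ndufab1) and 1 higher (Etfdh), and in Tet1 0 were called. Of 30 assembly factors matched, out of 47 symbols listed, 8 were lower and 3 higher in Tet2 (7 and 1 in Tet2ΔRBD, 0 and 1 in Tet1), with a median of -0.17, and these shares in Tet2 were near those of all genes. Cox17, the copper chaperone of complex IV, was lower in both Tet2 lines (-0.78 ± 0.11 and -0.43 ± 0.11), and Lrpprc, which stabilises mitochondrial mRNAs, was higher in both (1.40 ± 0.25 and 0.97 ± 0.25). The 13 subunits encoded in mitochondrial DNA were not analysed here, so the chain was followed only on its nuclear side.

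Upstream of the chain, 6 of 19 enzymes of the tricarboxylic acid cycle and pyruvate oxidation were called lower in Tet2 and 1 higher (5 and 1 in Tet2ΔRBD, 0 and 0 in Tet1), with a median of -0.25. Of 26 genes of protein import, 14 were lower and 1 higher in Tet2 (8 and 0 in Tet2ΔRBD, 1 and 0 in Tet1), with a median of -0.41. The small subunits of the outer membrane import channel Tomm7 (-1.27 ± 0.23, SE) and Tomm6 (-1.003 ± 0.16) were among those lower in Tet2, and the receptor Tomm70a (0.74 ± 0.19) was higher. Regulators of the nuclear and mitochondrial genes of the chain had calls on the other side: of 14 tested, 4 were higher in Tet2 and the same number in Tet2ΔRBD (Pprc1, Esrra, Polrmt and Polg in both) and 0 lower, with a median of 0.25 in Tet2 and 0 called in Tet1. These regulators had a median effective length of 3504 bases. Among the other genes of 2000 bases or more, 19.7% were called higher in Tet2. Of 17 glycolysis genes 4 were higher and 3 lower in Tet2 (1 and 3 in Tet2ΔRBD, 0 and 1 in Tet1), with a median of -0.01, which in Tet2 is near the 14.6% higher and 18.5% lower of all genes. Among them Gapdh was lower in both Tet2 lines (-1.04 ± 0.15 and -0.92 ± 0.15).

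Other families of mostly short or abundant mRNAs were counted in the same fit, in which 18.5% of all genes were called lower in Tet2 and 12.1% in Tet2ΔRBD. Of 84 cytosolic ribosomal protein genes, 48 were called lower and 1 higher in Tet2 (median -0.64, median effective length 649.8 bases), 27 and 1 in Tet2ΔRBD and 0 and 2 in Tet1. Of 76 mitochondrial ribosomal protein genes 38 were lower and 1 higher in Tet2 (median -0.41, 975 bases), with 21 and 0 in Tet2ΔRBD and 4 and 0 in Tet1. Of 39 tested genes with a proteasome symbol, taken by symbol alone, 12 were lower and 2 higher in Tet2 (median -0.09, 1352 bases). Psmc3ip, which is not a proteasome subunit, is among the 12. In Tet2ΔRBD there were 5 and 1, a share lower near that of all genes, and in Tet1 0 and 1. Of 6 RNAs held in the nucleus, 2 were lower and 0 higher in Tet2, 2 lower and 1 higher in Tet2ΔRBD, and 0 called in Tet1. No difference between families was tested.

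The promoters were compared because nuclear genes of the chain are known to share binding sites for NRF1, for ETS factors such as GABP and for YY1. RefSeq promoter windows of GRCm38.p6, 300 bases each (250 before and 50 after the start), were found for 66 of the 85 genes by symbol, in 71 windows. The letters GCGCNTGCGC or their reverse complement, of the NRF1 type, stood in 18 windows (25.4%), against 9.26% of the windows of all tested genes and 4.6% of all windows. CCGGAAG (ETS type) stood in 22.5%, 16.2% and 8.86%, AAGATGG (YY1 type) in 14.1%, 6.61% and 6.34%, and TATAAA in 11.3%, 7.2% and 13.6%, with both strands searched for each. These windows count alternative starts of a gene, and a match is a stretch of letters, not a bound site.

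Among the genes with the NRF1-type letters were Sdha and Sdhd, which lay on opposite sides of input. The stretches around the match are printed to show that both matched the reverse complement of this pattern, which leaves 1 base free, in chr13:74350294-74350373 (Sdha) and chr9:50603884-50603963 (Sdhd), both on the minus strand of GRCm38.p6, 5′ to 3′, with the match in capitals.
Sdha: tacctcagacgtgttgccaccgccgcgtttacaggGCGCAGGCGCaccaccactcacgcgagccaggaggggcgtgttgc
Sdhd: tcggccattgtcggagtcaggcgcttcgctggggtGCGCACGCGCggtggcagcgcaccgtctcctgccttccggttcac
Neither stretch is part of the transcript, and no measurement here bears on binding to them.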

How the data were processed

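RNA recovered by anti-Flag immunoprecipitation and input RNA were sequenced in 20 libraries, and libraries were grouped by line and fraction from their titles. Per the study's methods and the labels, the authors checked reads with FastQC and AfterQC, removed ribosomal and transfer RNA with Bowtie2, trimmed with Trimmomatic and quantified genes with RSEM on mm9 and RefSeq transcripts (versions are not given in the sources used here). The deposited files hold expected counts, TPM + 1, effective length and FPKM. Expected counts, as deposited by the authors, were rounded to whole numbers for the tests. TPM was recovered by subtracting 1 from the deposited TPM + 1 column, and FPKM was not used. TPM depends on all transcripts of a library, and RSEM divides reads shared by similar genes.

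Counts were fitted with edgeR 4.0.16 (R 4.3.3) with TMM factors and a term for every pair and for the IP of every line, on genes with 1 CPM in at least 2 libraries, leaving 7 residual degrees of freedom. The SE is the fold change over the square root of F, and p-values were adjusted by Benjamini-Hochberg over all genes tested (threshold 0.05). Ratios of TPM used a pseudocount of 1, which understates the ratio of low genes. Pairing rests on the design: each IP was set against the input of the same number. IP and input of the same number deviated together (correlations of 0.62 to 0.86 in Tet2 and 0.58 to 0.84 in Tet2ΔRBD, 0.27 in Tet1), as did Tet2 and Tet2ΔRBD inputs (0.70 to 0.90). Alternatives were upper-quartile factors, limma 3.58.1 on log2 TPM with a pseudocount of 1 or 0.1, DESeq2 1.42.0, no filter, no replicate block, replicates 3 and 4 summed, and each pair left out.

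The procedure was tested on counts generated with known changes for the real genes. In Tet2 it recovered 9% of 1.5-fold, 62% of 2-fold and 96% of 4-fold changes over 13603 genes, with 7 false calls. The changed genes were drawn at random from all genes, most of them less abundant than the subunit genes. Each library's total limits the precision of low genes, and PCR duplicates were not marked.

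Genes were named by rule: the highest input of each complex; in each line the 3 largest and 3 smallest ratios among called genes with 1 sign in every pair and at least 5 TPM; the 3 largest differences between lines; the 4 Sdh genes; isoforms; and genes called between inputs. Other genes named singly were chosen after their values were seen, and 1 gene is counted but not reported singly here. The genes, lists and tests were chosen with earlier results of these data known. Effective length differed between libraries by under 1.5 bases for 79 of 85 genes. Promoter sequences come from RefSeq (GRCm38.p6) and coding stretches from NCBIM37 with gencode vM1.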

Additional observations from a re-analysis of the deposited data

Results flagged for a closer look

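In 11 of 105 groups of 4 pairs, Dixon's ratio put the highest or lowest pair far from the others relative to the group's range. Chance alone exceeds its cut-off in about 1 of 20 groups only where the 4 values are independent. Some replicates of each line were near-identical and the groups share libraries, so 11 of 105 cannot be compared with that rate. Of the 11 groups, 7 were single genes in Tet2 replicate 2, all below the other pairs of that line. Uqcr11 had a log2 ratio of -1.07 there against -0.37 to -0.33 elsewhere, Cox7c -1.14 against -0.44 to -0.41, and Ndufc1 -1.53 against -0.93 to -0.85. Cox7a2 had -1.40 against -0.71 to -0.61, Cox4i1 -0.50 against 0.09 to 0.15, Cox6a1 -0.69 against -0.01 to 0.09, and Ndufb4 -1.28 against 0.07 to 0.34.

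In Tet2ΔRBD replicate 2 the values lay above the other pairs of the line. Cox6a1 had 1.04 against -0.79 to -0.58, Ndufa1 0.17 against -0.26 to -0.20, and the median of the 81 tested genes was 0.00092 against -0.25 to -0.22. In Tet2ΔRBD replicate 1 the median of complex V was -0.25 against -0.14 to -0.12. The 2 replicate 2 pairs form a library set of their own, and the part of library preparation in these values was not tested.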

How the results depend on the processing

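Upper-quartile factors left the counts of called genes close to those reported, and the fitted ratios of the 93 values called over the 3 lines changed sign in 0 of 1767 refits. The 39 called values of named genes kept the call in 617 refits and lost it in 124, 36 of these with no replicate block. The counts depended on the setting as follows, as genes called higher and lower in IP, with the share of all genes in brackets. DESeq2 gave 7 lower in Tet1 (5.38%), and no filter on low counts 1 (1.58%). With limma on log2(TPM + 1) they were 2 and 1 in Tet1 (3.59% and 1.05%) and 9 higher in Tet2 (35%). In Tet2ΔRBD they were 5 and 17 (23.5% and 4.59%). With limma on log2(TPM + 0.1) they were 1 lower in Tet1 (1.04%) and 10 higher in Tet2 (35.1%). In Tet2ΔRBD they were 5 and 17 (24.6% and 4.66%). With no replicate block they were 0 lower in Tet1 (0%) and 0 and 4 in Tet2 (0.883% and 1.85%). In Tet2ΔRBD they were 0 and 0 (0.0365% and 0.299%). With replicates 3 and 4 summed they were 0 lower in Tet1 (0.955%) and 0 higher in Tet2 (9.29%). In Tet2ΔRBD they were 0 and 6 (3.12% and 4.67%). Without both replicate 2 pairs, chosen after seeing the data, they were 2 and 33 in Tet1 (8.78% and 12.1%) and 5 higher in Tet2 (17.3%). In Tet2ΔRBD 59 were lower (17.5%), with 1 gene called between Tet2 and Tet2ΔRBD. In the library set of replicates 3 and 4 and Tet1, also chosen after seeing the data, they were 4 and 61 in Tet1 (19.6% and 27.2%). In Tet2 10 were higher (24.7%), and in Tet2ΔRBD they were 5 and 63 (24.2% and 24.9%). That set had 6 genes called between Tet2 and Tet2ΔRBD and 7 between Tet1 and Tet2. The cause was not tested. The replicate block for inputs left 0 subunit genes called between Tet2ΔRBD and Tet2, with 5 subunit genes at an unadjusted p under 0.05, and called 5 of all 13178 genes.

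On the TPM scale, a ratio of at least 1.5 in every pair left 1 above and 2 below in Tet1, 2 and 5 in Tet2, and 0 and 2 in Tet2ΔRBD. Centring each pair on the median gene left 3 above in Tet2 and 3 in Tet2ΔRBD, with median ratios of -0.27 in Tet1 (main value -0.19) and -0.34 in Tet2ΔRBD (main value -0.17). Mean IP against mean input, with no replicate block, gave 17 above and 68 below in Tet2 and 26 and 59 in Tet2ΔRBD.

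Leaving out 1 pair at a time gave 0 to 1 higher and 0 to 10 lower in Tet1, 0 to 4 and 33 to 60 in Tet2, and 0 to 1 and 6 to 45 in Tet2ΔRBD. It gave 0 to 1 genes between Tet2 and Tet2ΔRBD, 0 to 0 between Tet1 and Tet2, and 0 to 0 between inputs. Genes above and below input in every pair were 17 to 21 and 64 to 68 in Tet1, 9 to 15 and 47 to 49 in Tet2, and 6 to 11 and 27 to 49 in Tet2ΔRBD, and the median ratios ranged from -0.21 to -0.17, from -0.40 to -0.19 and from -0.23 to -0.12. With Tet1 reduced to 1 pair, its spread is assumed to be that of the other lines. The share of all genes called lower with 1 pair left out ran from 10.8% to 19.3% in Tet2. In Tet2ΔRBD it ran from 4.3% to 14.5%.

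Depth limits little here for the 79 genes of at least 5 TPM, while the 6 lower ones cannot be read. Each line is a clone with 2 or 4 pairs, and neither untagged cells nor a control antibody was analysed here.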

Other observations

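The 5 genes taken in by symbol that are not counted as subunits today were mostly called in no line: 1 was called lower in Tet2 (Cox7a2l) and 2 in Tet2ΔRBD (Cox7a2l and Atp5sl, -0.31 ± 0.09, SE), with a median of -0.11 in Tet2. Ndufa4l2 had 0.03 in Tet1, -0.11 in Tet2 and -0.15 in Tet2ΔRBD, and its paralog Ndufa4 was called lower in Tet2 (-1.05 ± 0.18) and Tet2ΔRBD (-0.68 ± 0.18, SE).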
